A study of Mus musculus with 10 samples.

Results

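The extracellular matrix of the colon was described here through 38 genes, fixed as a named list of collagens, other matrix proteins, the enzymes that cross-link them and a fibroblast protease, and followed across every array of the series. Of these genes, 36 have a probe set annotated to no other gene and could be measured, among 18193 genes in all. Fbn1, which codes for the microfibril protein fibrillin, is given no probe set by the annotation used, and the probe sets of Loxl2, a lysyl oxidase, are shared there with another gene, so neither was analysed here. Each array measured RNA of the distal colon of 1 Rag1-/- C57BL/6 mouse, and Rag1-/- mice form no T or B cells of their own, a feature that all groups share. The 4 control mice had been injected with Tregs (regulatory T cells), and the 6 inflamed mice with naïve T cells, which bring on colitis when no Tregs are present. By their labels 3 of the inflamed colons were severely and 3 moderately inflamed. All mice were injected at 10 weeks of age and killed 2 to 3 months later, at 4 to 5 months, and the tissue ran from the rectum to the junction of proximal and distal colon. As a model of colitis this transfer rests on T cells of a donor in a host that lacks adaptive immunity, and the tissue was a strip of whole colon wall, so that mucosa and muscle were measured together.

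The matrix of the gut wall is made largely by fibroblasts, smooth muscle cells and pericytes. Fibrillar collagens give tensile strength, small leucine-rich proteoglycans set the spacing and thickness of the fibrils, and collagen IV, laminins and nidogen form the basement membranes under epithelium and around vessels and muscle cells. Elastic fibres are built from elastin on a scaffold of microfibrils and fibulins, and lysyl oxidases cross-link both collagen and elastin. In chronic colitis this matrix is known both to be degraded and to be laid down anew as scar.

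Levels were read as RMA values on the log2 scale, so that a difference of 1 is a 2-fold change, and each gene was read from its probe set of highest mean over the 10 arrays. Array medians lay between 5.36 and 5.40 and lower quartiles between 3.82 and 3.92, and the lowest group mean of a measured matrix gene was 5.34, above the lower quartile of every array. Levels of different genes were not compared, since probe sets differ in brightness. Differences were tested with limma (two-sided), p-values were adjusted by the Benjamini-Hochberg method across all 18193 genes, and an adjusted p under 0.05 was called. For further probe sets of a gene the adjustment ran across all 34945 probe sets. With 4 control and 6 inflamed arrays the precision is limited by their number.

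One inflamed colon stood apart in these genes. In severe replicate 1 the 36 genes had a median of -0.03 relative to their control means, whereas the medians of the other 5 inflamed colons lay between -1.06 and -0.58. It was the highest of the 6 inflamed colons in 25 of the 36 genes, and in 14 genes it lay above every control. Among marker lists of cell types, the same colon had the highest summed level of the inflamed colons for fibroblasts (10.70, against 9.63 to 10.18 in the others), for macrophages and monocytes (12.82, against 11.66 to 12.33) and for neutrophils (14.52, against 10.64 to 13.81). It was also the highest of them for blood endothelium (8.56, against 7.92 to 8.18), mesothelium (6.82, against 6.06 to 6.67) and adipocytes (8.32, against 7.46 to 7.88). It was not the highest for smooth muscle (13.43, against 13.12 to 13.95), pericytes (10.41, against 10.34 to 10.72) or T cells (9.82, against 8.93 to 9.89). For enteric glia (7.01, against 7.02 to 7.18) and epithelium (16.11, against 16.14 to 16.21) it was the lowest. The part of these cells in its matrix values was not tested. Results are given for all 6 inflamed colons and, where the call or the size changed, also without severe replicate 1. That array was singled out by its values in these same genes. Counts and adjusted p-values without it make no allowance for that choice and are descriptive only.

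**Figure D1:**
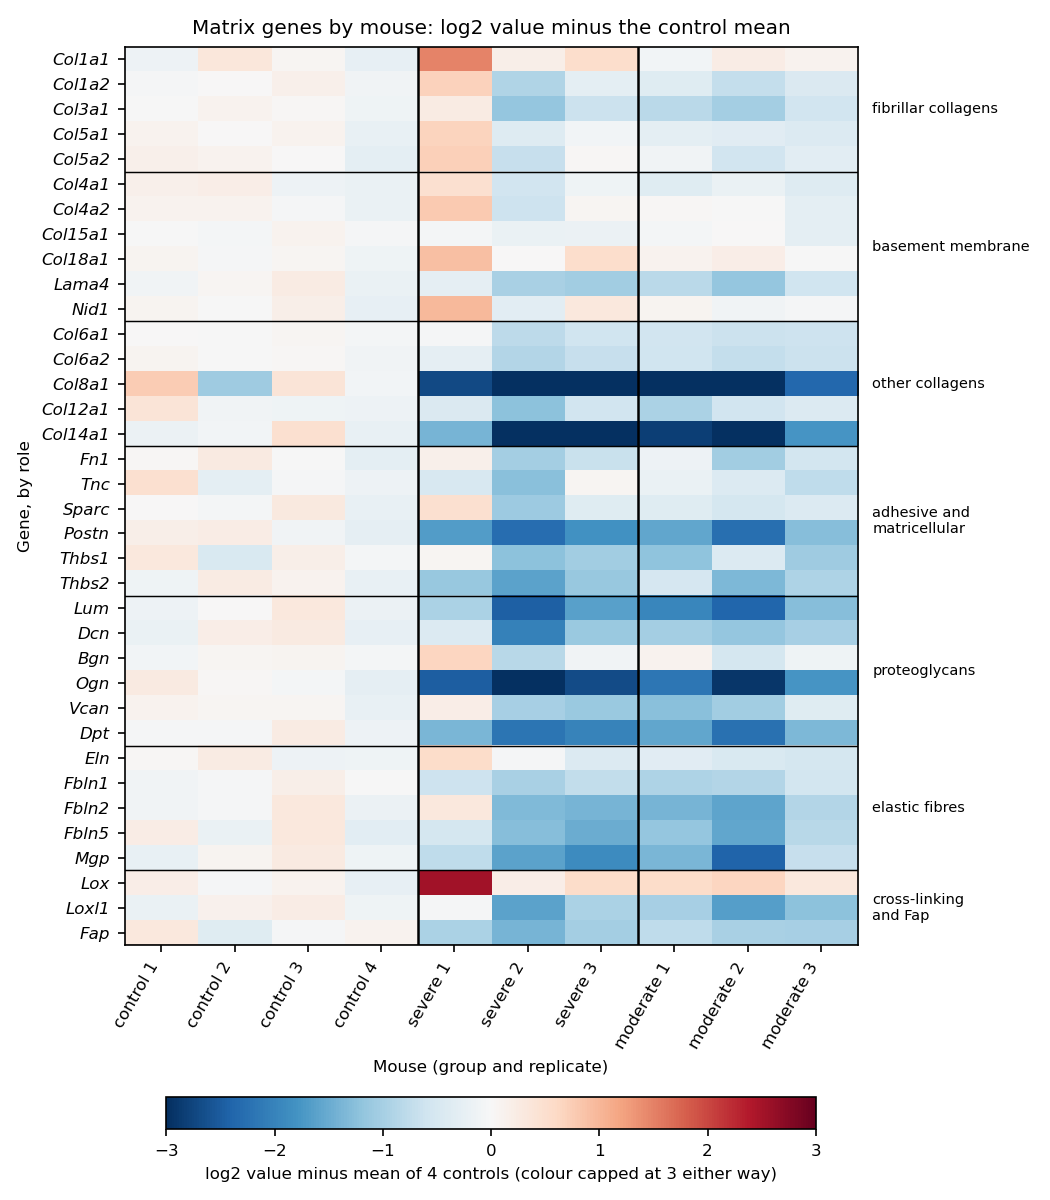
Each row is a matrix gene, grouped by role, and each column a mouse; the colour is the log2 value minus the mean of the 4 control mice, capped at 3 in either direction. The inflamed columns are mostly blue, darkest for Col8a1, Col14a1 and Ogn, while severe replicate 1 is red for the fibrillar collagens, most of the basement membrane genes and Lox.

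The first comparison asked how the matrix genes of the 6 inflamed colons differed from those of the 4 controls. At the threshold 21 of the 36 genes fell and 0 rose, where over all genes 21.2% fell and 18.5% rose. In 15 genes every inflamed colon lay below every control, which held for 17.1% of all genes. In 0 matrix genes did every inflamed colon lie above every control, against 14.6% of all genes. In bulk tissue on arrays scaled alike, fewer cells of a type, less RNA per cell and a smaller share among other cells cannot be told apart. Of the markers of cells that make matrix, 8 of 8 fell for smooth muscle, 3 of 5 for pericytes and 2 of 7 for fibroblasts. The fibroblast falls include Mfap5, itself a matrix gene. The values of these markers are given below, and their part in the fall of the matrix genes was not tested. The median difference of the 36 genes was -0.68, against 0.03 over all genes, and 13 of the 21 falls were at least 2-fold. No rise had an unadjusted p under 0.05 with limma or with the methods' t-test, which called 17 falls and 0 rises after adjustment, where over all genes it called 20% lower and 17.6% higher. Severe replicate 1 was singled out by these same genes, so the counts without it are descriptive. Without it, 27 genes fell and 1 rose, where over all genes 20.8% fell and 18.3% rose. All 21 falls were among those 27. The roles are taken in turn below from the fibril-forming collagens to the enzymes.

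**Figure D2:**
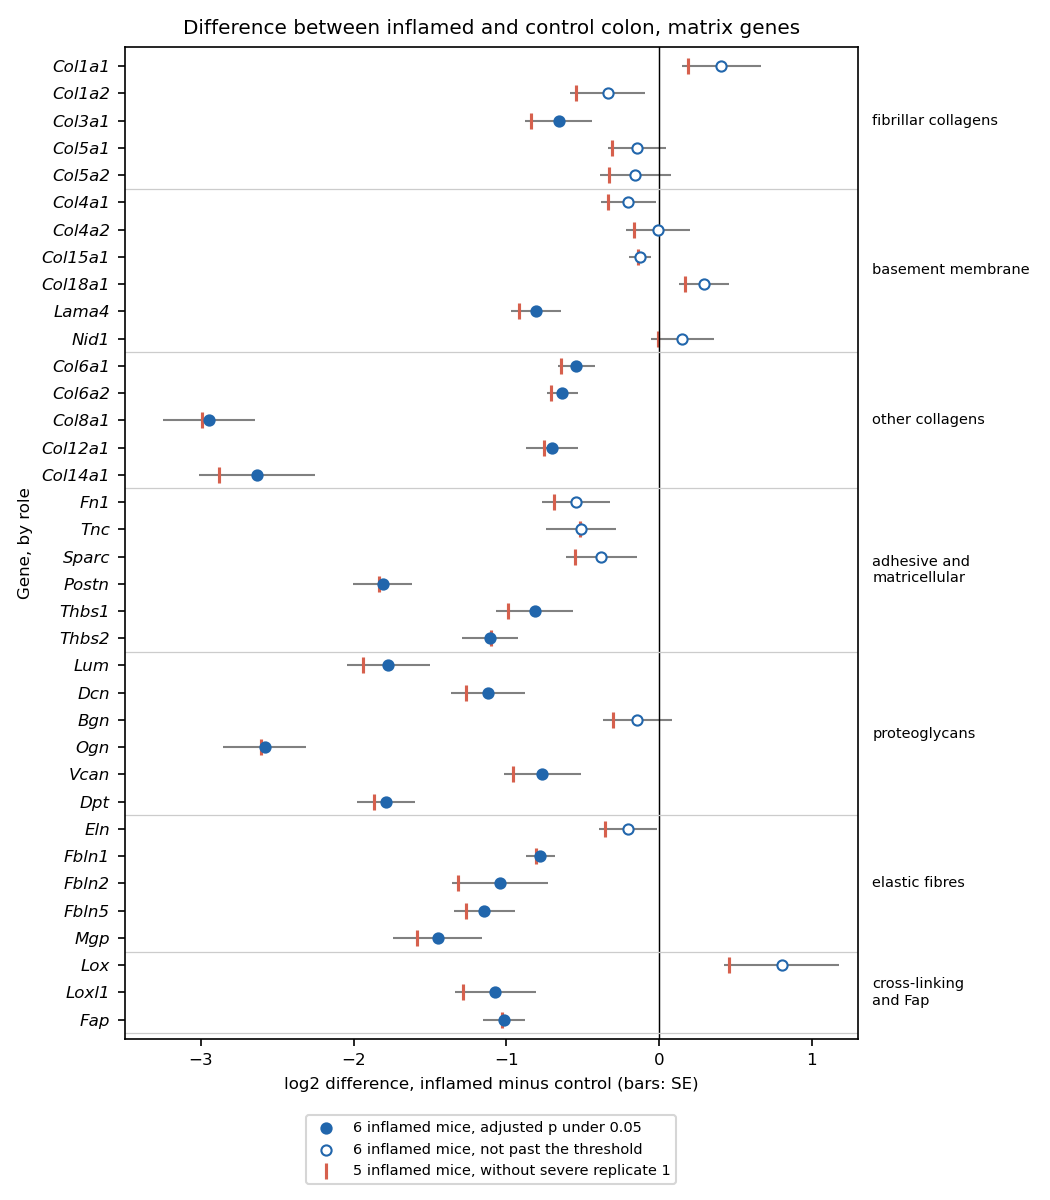
Points give each gene's log2 difference of inflamed minus control colon with its SE, filled where the adjusted p was under 0.05, and red ticks give the difference without severe replicate 1. All filled points lie to the left of 0, and the red ticks of the fibrillar collagens and of Lox lie to the left of their points.

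Of the 5 fibrillar collagen chains, which assemble into the main load-bearing fibrils, 1 fell and 4 did not pass. Col3a1, the single chain of collagen III, read 12.28, 12.38, 12.32 and 12.14 in control, 12.53, 11.13 and 11.64 in severe and 11.46, 11.27 and 11.71 in moderate colons. It fell by 0.66 ± 0.22 (SE, adjusted p = 0.0325), a 1.58-fold lower level. The other 5 inflamed colons lay below every control, and severe replicate 1 above them. This call was among the weakest: it was lost with 7 of the 10 arrays left out in turn, and without severe replicate 1 the difference was -0.84 (adjusted p = 0.000286). The second probe set of Col3a1 gave -0.54 and did not pass (adjusted p = 0.174).

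Collagen I is made of chains from Col1a1 and Col1a2, and their values parted. Col1a1 read 7.09, 7.56, 7.28 and 6.99 in control, 8.71, 7.40 and 7.75 in severe and 7.15, 7.46 and 7.35 in moderate colons. It differed by 0.41 ± 0.26 (SE, adjusted p = 0.24), with the groups overlapping. Col1a2 read 10.77, 10.82, 10.96 and 10.70 in control, 11.51, 9.90 and 10.52 in severe and 10.46, 10.09 and 10.37 in moderate colons. It differed by -0.34 ± 0.25 (SE, adjusted p = 0.307). In Col1a2, as in Col3a1, all inflamed colons except severe replicate 1 lay below the controls, and without that array its difference was -0.55 (adjusted p = 0.0056), while that of Col1a1 was 0.19 (adjusted p = 0.303). Second probe sets turned both signs: that of Col1a1 gave -0.08 (adjusted p = 0.64) and that of Col1a2 gave 0.06 (adjusted p = 0.885). No direction was therefore assigned to collagen I over all 6 inflamed colons.

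The collagen V chains, which start and limit the growth of collagen I fibrils, differed by -0.15 for Col5a1 (adjusted p = 0.579) and -0.15 for Col5a2 (adjusted p = 0.633). Col5a1 read 8.29 in severe replicate 1, 7.21 to 7.54 in the other inflamed colons and 7.40 to 7.74 in control. Without severe replicate 1 its difference was -0.31 (adjusted p = 0.0247), and that of Col5a2 -0.33 (adjusted p = 0.118). With severe replicate 1 left out, 3 of the 5 fibrillar chains fell, a descriptive count, where over all genes 20.8% fell.

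In the basement membrane group 1 of 6 genes fell and 5 did not pass. Lama4, a laminin chain of vessel and muscle basement membranes, read 6.76, 6.93, 7.11 and 6.67 in control, 6.60, 5.90 and 5.82 in severe and 6.05, 5.70 and 6.28 in moderate colons. It fell by 0.81 ± 0.16 (SE, adjusted p = 0.00208), and all inflamed colons lay below the controls. Of 7 markers of blood endothelium 5 fell and 2 did not pass, and this list is described below with the other markers.

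The collagen IV chains Col4a1 and Col4a2, which pair in a single network protein, did not pass. Col4a1 read 9.0, 9.05, 8.71 and 8.66 in control, 9.34, 8.27 and 8.73 in severe and 8.49, 8.65 and 8.46 in moderate colons. It differed by -0.20 ± 0.18 (SE, adjusted p = 0.402), its second probe set gave 0.19 (adjusted p = 0.42), and without severe replicate 1 its difference was -0.34 (adjusted p = 0.0387). Col4a2 read 7.66, 7.67, 7.52 and 7.35 in control, 8.32, 6.92 and 7.61 in severe and 7.58, 7.54 and 7.27 in moderate colons. It differed by -0.01 ± 0.21 (SE, adjusted p = 0.98), and its sign turned with the scaling of the arrays (0.05 with each array centred on its median). Without severe replicate 1 it differed by -0.17 (adjusted p = 0.389). The groups overlapped in both genes. These genes lie head to head: the RefSeq starts on GRCm38.p6 are at 11312826 on the minus strand for Col4a1 and 11312805 on the plus strand for Col4a2 of chromosome 8, 21 bases apart.

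Nid1, whose product nidogen links laminin to collagen IV, read 8.67, 8.56, 8.76 and 8.34 in control, 9.55, 8.27 and 8.90 in severe and 8.67, 8.48 and 8.54 in moderate colons. It differed by 0.15 ± 0.21 (SE, adjusted p = 0.594), and by -0.01 without severe replicate 1 (adjusted p = 0.958). Its second probe set gave -0.10 (adjusted p = 0.573). Col15a1 and Col18a1 code for related basement membrane collagens. Col15a1 differed by -0.13 (adjusted p = 0.197), within a range of 5.50 to 5.90 over all arrays.

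Col18a1 was the single matrix gene called higher in any comparison with control over all arrays. It read 7.23, 7.11, 7.21 and 7.03 in control, 8.06, 7.16 and 7.67 in severe and 7.25, 7.35 and 7.14 in moderate colons. Over all 6 inflamed colons it differed by 0.29 ± 0.16 (SE, adjusted p = 0.185), and without severe replicate 1 by 0.17 (adjusted p = 0.256). In severe colons alone the difference was 0.48 ± 0.17 (SE, adjusted p = 0.0471), and without severe replicate 1 it was 0.27 (adjusted p = 0.174). The second probe set of Col18a1 rose by 0.64 in inflamed colon (adjusted p = 0.0121). With the mean over both probe sets the rise was 0.46 (adjusted p = 0.0444).

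All 5 of the other collagens fell. They comprise the beaded-filament chains of collagen VI, the network collagen VIII of vessels and muscle, and the fibril-associated collagens XII and XIV. The largest fall of any matrix gene on the list was in Col8a1, which read 9.99, 8.17, 9.62 and 9.16 in control, 6.53, 6.10 and 6.03 in severe and 6.00, 6.19 and 6.87 in moderate colons. It fell by 2.94 ± 0.30 (SE, adjusted p = 2.17e-05), a 7.70-fold lower level. The lowest control, replicate 2, was still above the highest inflamed colon, and severe replicate 1 lay among the other inflamed colons. Both further probe sets of Col8a1 also fell, by 2.33 (adjusted p = 1.73e-05) and 0.67 (adjusted p = 0.00158).

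Col14a1, the chain of collagen XIV, read 7.80, 7.90, 8.45 and 7.75 in control, 6.58, 4.87 and 4.62 in severe and 5.16, 4.61 and 6.21 in moderate colons. It fell by 2.63 ± 0.38 (SE, adjusted p = 0.000208), a 6.20-fold lower level, with severe replicate 1 and moderate replicate 3 the highest of the inflamed colons. Its second probe set fell by 1.09 (adjusted p = 0.000164). Col12a1, the chain of collagen XII, read 8.15, 7.66, 7.64 and 7.62 in control, 7.33, 6.53 and 7.18 in severe and 6.82, 7.20 and 7.35 in moderate colons. It fell by 0.70 ± 0.17 (SE, adjusted p = 0.00602), and the groups did not overlap. The second probe set of Col12a1 gave 0.08 (adjusted p = 0.414), and with the mean over its probe sets the difference was -0.15 (adjusted p = 0.0647).

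The collagen VI chains fell by less and with little spread. Col6a1 fell by 0.54 ± 0.12 (SE, adjusted p = 0.00428) and Col6a2 fell by 0.63 ± 0.10 (SE, adjusted p = 0.000456). Control colons read 8.28 to 8.40 for Col6a1, the other inflamed colons 7.56 to 7.78, and severe replicate 1, at 8.31, lay within the controls. For Col6a2 all inflamed colons, at 8.20 to 8.81, were below the controls, at 8.98 to 9.16.

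Among the adhesive and matricellular glycoproteins, which bind cells to the matrix or tune that binding, 3 of 6 fell. Postn, periostin, a collagen-binding matricellular protein, read 11.17, 11.21, 10.88 and 10.71 in control, 9.31, 8.72 and 9.19 in severe and 9.43, 8.73 and 9.72 in moderate colons. It fell by 1.81 ± 0.19 (SE, adjusted p = 2.78e-05), a 3.51-fold lower level, with no overlap and with severe replicate 1 among the other inflamed colons. Thbs2, thrombospondin 2, read 6.32, 6.69, 6.54 and 6.23 in control, 5.31, 4.83 and 5.31 in severe and 5.94, 5.11 and 5.52 in moderate colons. It fell by 1.11 ± 0.18 (SE, adjusted p = 0.000489), and both of its further probe sets fell as well, by 1.0 (adjusted p = 7.53e-05) and 1.13 (adjusted p = 1.16e-05). Thbs1, thrombospondin 1, an activator of latent TGF-beta, fell by 0.81 ± 0.25 (SE, adjusted p = 0.0231), with severe replicate 1, at 7.22, and moderate replicate 2, at 6.75, inside the control range of 6.71 to 7.48. The call of Thbs1 was lost without control replicate 1 (-0.71, adjusted p = 0.076) and without control replicate 3 (-0.75, adjusted p = 0.0674). Its second probe set gave -0.49 and did not pass (adjusted p = 0.0858).

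Fibronectin, tenascin C and SPARC did not pass. Fn1, which codes for fibronectin, the main adhesive glycoprotein of new matrix, read 9.98, 10.21, 9.92 and 9.65 in control, 10.10, 8.92 and 9.27 in severe and 9.79, 8.89 and 9.39 in moderate colons. It differed by -0.55 ± 0.22 (SE, adjusted p = 0.0726). Without severe replicate 1 its difference was -0.69 (adjusted p = 0.0111), and without moderate replicate 1 it was -0.63 (adjusted p = 0.0478). A second, dim probe set of Fn1, with a mean of 3.85, gave 0.41 in the other direction (adjusted p = 0.042).

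Sparc, a collagen-binding protein, differed by -0.38 (adjusted p = 0.223) over all colons and by -0.55 (adjusted p = 0.0167) without severe replicate 1, the array in which it read 10.50 against 8.92 to 9.66 in the other inflamed colons. Tnc, tenascin C, typical of remodelled tissue, differed by -0.51 (adjusted p = 0.098), and without severe replicate 3 by -0.62 (adjusted p = 0.0414). Its inflamed values, 7.15 to 8.45, overlapped the control values, 8.11 to 8.88.

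Of the proteoglycans and fibril regulators 5 of 6 fell. Ogn, osteoglycin, a small leucine-rich proteoglycan, read 10.98, 10.75, 10.66 and 10.45 in control, 8.24, 7.22 and 8.02 in severe and 8.54, 7.78 and 8.94 in moderate colons. It fell by 2.58 ± 0.27 (SE, adjusted p = 2.44e-05), a 5.99-fold lower level, and its second probe set fell by 2.71 (adjusted p = 9.64e-06). Dpt, dermatopontin, which speeds collagen fibril formation, read 10.94, 10.93, 11.21 and 10.82 in control, 9.60, 8.78 and 8.98 in severe and 9.41, 8.73 and 9.64 in moderate colons. It fell by 1.79 ± 0.19 (SE, adjusted p = 2.66e-05), a 3.45-fold lower level. In both genes the groups were far apart and severe replicate 1 was not the highest inflamed colon.

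Lum and Dcn, lumican and decorin, small leucine-rich proteoglycans that bind collagen fibrils, followed. Lum fell by 1.77 ± 0.27 (SE, adjusted p = 0.000312), from 9.94 to 10.44 in control to 7.66 to 9.17 in inflamed colons. Dcn read 11.69, 12.09, 12.16 and 11.64 in control, 11.49, 9.87 and 10.77 in severe and 10.88, 10.73 and 10.90 in moderate colons. It fell by 1.12 ± 0.24 (SE, adjusted p = 0.00323), with no overlap, although severe replicate 1 lay only a little under the lowest control. A second probe set of Dcn, with a mean of 3.61, gave 0.11 (adjusted p = 0.38).

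Vcan, versican, a large hyaluronan-binding proteoglycan, fell by 0.76 ± 0.25 (SE, adjusted p = 0.0305), with severe replicate 1 at 7.11, above every control, and the other inflamed colons at 5.64 to 6.54. It has 8 probe sets, and with their mean the difference was -0.14 (adjusted p = 0.296). That mean takes in dim probe sets, with means of 2.55 to 3.43, under the lower quartile of every array. The 2 further brighter probe sets gave -0.45 (adjusted p = 0.164) and -0.24 (adjusted p = 0.481). The call was lost with 7 of the 10 arrays left out in turn, and without severe replicate 1 the difference was -0.96 (adjusted p = 0.000787). Bgn, biglycan, the close relative of decorin, did not pass, at -0.14 (adjusted p = 0.659), with 9.0 to 9.17 in control and 8.25 to 9.74 in inflamed colons, and at -0.30 (adjusted p = 0.183) without severe replicate 1. Its values in the 6 inflamed colons lay on both sides of the controls.

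Of the elastic fibre genes, with Mgp placed among them, 4 of 5 fell. Mgp, matrix Gla protein, an inhibitor of calcification, read 9.76, 10.07, 10.27 and 9.86 in control, 9.22, 8.37 and 8.11 in severe and 8.61, 7.59 and 9.31 in moderate colons. It fell by 1.45 ± 0.29 (SE, adjusted p = 0.00207), with no overlap. Fbln5, fibulin 5, which carries elastin to microfibrils, read 7.27, 6.86, 7.36 and 6.74 in control, 6.52, 5.78 and 5.58 in severe and 5.89, 5.50 and 6.22 in moderate colons. It fell by 1.14 ± 0.20 (SE, adjusted p = 0.000812), also with no overlap. Fbln1, fibulin 1, showed the narrowest spread of the 3, with 8.86 to 9.13 in control and 7.99 to 8.41 in inflamed colons, and it fell by 0.78 ± 0.10 (SE, adjusted p = 7.17e-05).

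Fbln2, fibulin 2, read 6.92, 6.99, 7.36 and 6.85 in control, 7.35, 5.70 and 5.64 in severe and 5.64, 5.45 and 6.14 in moderate colons. It fell by 1.04 ± 0.31 (SE, adjusted p = 0.0194), and severe replicate 1 read as high as the highest control. Without that array the difference was -1.32 (adjusted p = 4.91e-05), and without control replicate 3 it was -0.94 (adjusted p = 0.0635). Its second probe set, with a mean of 2.58, gave 0.20 in the other direction (adjusted p = 0.0272).

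Eln, elastin itself, did not pass. It read 6.58, 6.77, 6.39 and 6.40 in control, 7.08, 6.51 and 6.13 in severe and 6.19, 6.07 and 6.00 in moderate colons. It differed by -0.20 ± 0.19 (SE, adjusted p = 0.427), with a second probe set at 0.00 (adjusted p = 0.967), and without severe replicate 1 its difference was -0.35 (adjusted p = 0.0326). Both severe replicate 1 and severe replicate 2 lay inside or above the control range, and the other 4 inflamed colons below it.

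Among the cross-linking enzymes and Fap, 2 of 3 fell. Loxl1, the lysyl oxidase that acts on elastin, read 6.76, 7.11, 7.18 and 6.83 in control, 6.94, 5.38 and 6.02 in severe and 5.99, 5.32 and 5.75 in moderate colons. It fell by 1.07 ± 0.26 (SE, adjusted p = 0.00677), and all inflamed colons except severe replicate 1 lay below the controls. Its second probe set gave -0.10 (adjusted p = 0.528). Fap, fibroblast activation protein, a surface protease of activated fibroblasts, read 7.58, 6.90, 7.23 and 7.36 in control, 6.32, 5.88 and 6.25 in severe and 6.50, 6.30 and 6.27 in moderate colons. It fell by 1.02 ± 0.14 (SE, adjusted p = 0.000129), with no overlap and with severe replicate 1 among the other inflamed colons.

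Lox, lysyl oxidase, had the largest positive difference of the 36 genes but did not pass. It read 5.85, 5.62, 5.75 and 5.40 in control, 8.19, 5.85 and 6.22 in severe and 6.21, 6.31 and 5.97 in moderate colons. Over all 6 inflamed colons it differed by 0.80 ± 0.38 (SE, adjusted p = 0.114), and severe replicate 1 lay far above every other array. Without that array the remaining colons gave 0.46 ± 0.12 (SE, adjusted p = 0.0104), the only rise among the 36 genes in that fit. Control replicate 1 and severe replicate 2 both read 5.85, so that the groups touched. A second probe set of Lox gave 0.61 (adjusted p = 0.222), and there all 6 inflamed colons, at 5.60 to 7.87, lay above the controls, at 5.45 to 5.57.

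**Figure D3:**
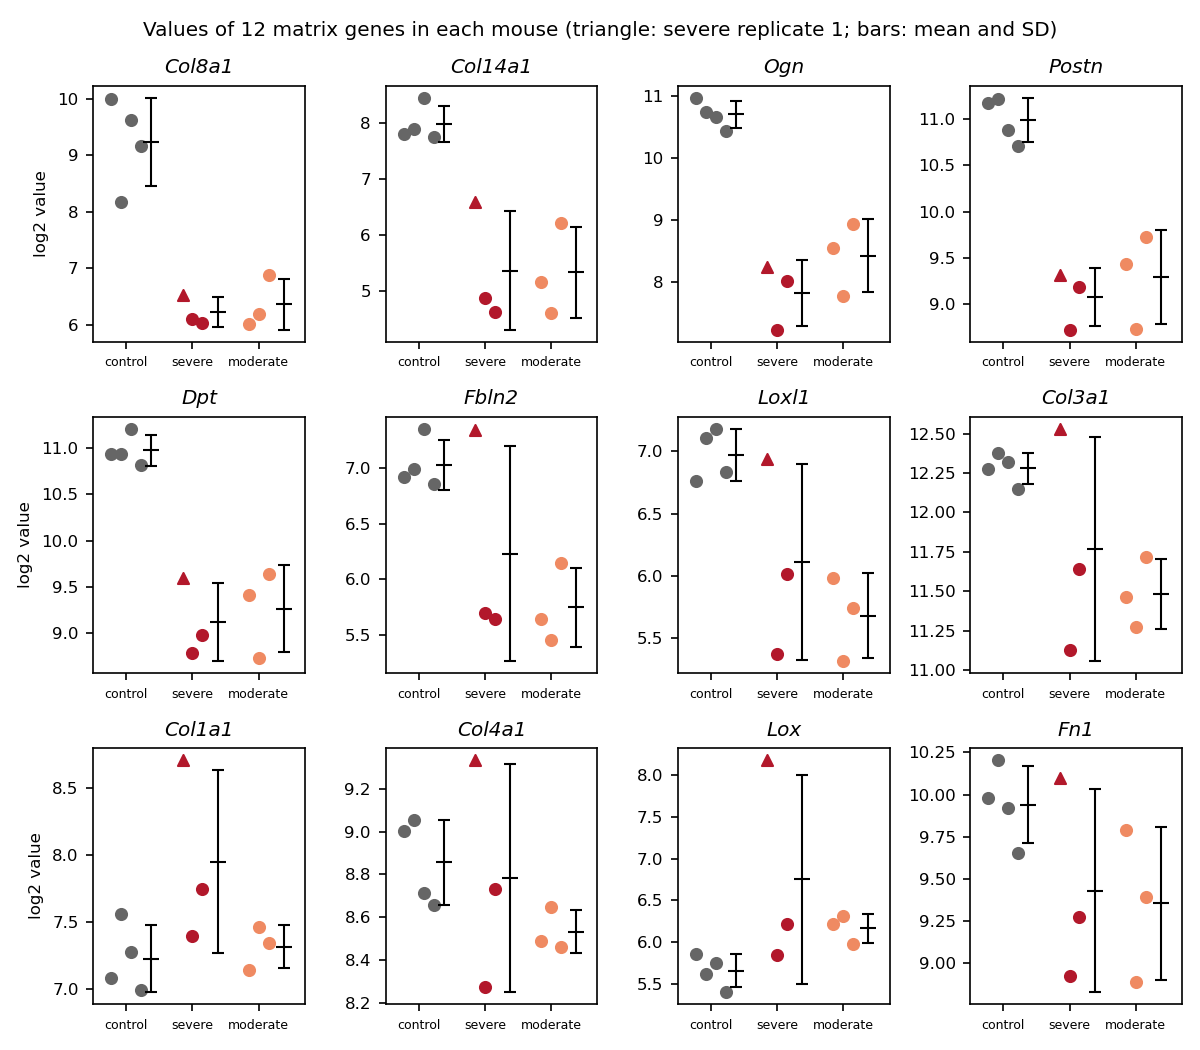
Each panel gives the log2 values of a matrix gene in the 4 control, 3 severe and 3 moderate colons, with the mean and SD of each group and with severe replicate 1 as a triangle; axes do not start at 0. In Col8a1, Col14a1, Ogn, Postn and Dpt the inflamed colons lie below all controls, whereas in Fbln2, Loxl1, Col3a1, Col1a1, Col4a1 and Lox the triangle lies apart from the other inflamed colons.

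The values of severe replicate 1 thus divided the list by gene. In Col8a1, Postn, Thbs2, Ogn, Dpt, Fbln1, Mgp, Fap, Tnc, Col12a1 and Col15a1 another inflamed colon was higher. In Lox, Fbln2, Col14a1, Col1a1, Loxl1 and Col1a2 it lay more than 1.2 above the mean of the other 5 inflamed colons. With it left out, 3 of 5 fibrillar collagens, 2 of 6 basement membrane genes and 5 of 5 other collagens fell. So did 5 of 6 adhesive glycoproteins, 5 of 6 proteoglycans, 5 of 5 elastic fibre genes (Mgp included) and 2 of 3 enzymes. In that fit 20.8% of all genes fell. The array was singled out by its values in these same genes, so these counts are descriptive only.

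The promoters of the matrix genes, whether they fell or not, were read for shared letters. RefSeq promoters on GRCm38.p6 were matched by symbol for 22 of the 36 measured genes, and the 250 bases before each annotated start were searched on both strands. The letters searched were TATAAA, the core element bound by the general transcription machinery, GGAATG, the core of sites for TEAD factors, and TGANTCA, the site of AP-1. The CArG box of serum response factor was searched as well. The 4 genes with the largest falls among those matched are shown, each 5′ to 3′ up to the base before the start, with matches in capitals.

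Col8a1, chr16:57754738-57754987 (minus strand): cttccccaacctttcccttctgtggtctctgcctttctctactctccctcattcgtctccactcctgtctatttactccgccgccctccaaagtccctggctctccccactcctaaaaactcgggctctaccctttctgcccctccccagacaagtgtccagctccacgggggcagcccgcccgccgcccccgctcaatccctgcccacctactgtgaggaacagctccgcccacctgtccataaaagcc

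Ogn, chr13:49607765-49608014 (plus strand): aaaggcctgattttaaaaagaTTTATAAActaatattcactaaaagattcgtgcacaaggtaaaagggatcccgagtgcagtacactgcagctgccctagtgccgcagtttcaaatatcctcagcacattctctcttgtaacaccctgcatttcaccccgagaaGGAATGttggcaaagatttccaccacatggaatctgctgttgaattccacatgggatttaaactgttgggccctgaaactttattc

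Postn, chr3:54359017-54359266 (plus strand): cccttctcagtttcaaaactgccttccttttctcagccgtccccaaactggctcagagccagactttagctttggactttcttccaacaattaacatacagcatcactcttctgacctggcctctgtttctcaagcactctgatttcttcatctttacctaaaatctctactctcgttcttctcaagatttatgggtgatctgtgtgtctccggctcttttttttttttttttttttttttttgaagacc

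Dpt, chr1:164796413-164796662 (plus strand): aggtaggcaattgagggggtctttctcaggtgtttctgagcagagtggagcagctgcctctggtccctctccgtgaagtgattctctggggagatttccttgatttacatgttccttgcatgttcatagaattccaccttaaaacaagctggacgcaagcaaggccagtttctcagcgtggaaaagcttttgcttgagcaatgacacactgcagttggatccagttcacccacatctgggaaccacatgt

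Of these only Ogn held a match, with TATAAA read on both strands in overlapping letters 229 to 222 bases before the start and GGAATG 86 to 81 bases before it. Among all 22 promoters TATAAA stood in 4 (Col3a1, Ogn, Thbs2 and Tnc), against 13.0% of 27025 promoters in the table. GGAATG stood in 3 (Col3a1, Nid1 and Ogn), against 12.6%, and TGANTCA in 1 (Col6a1), against 6.85%. The CArG box stood in 0, against 1.41%. No motif searched stood in more than 4 of the 22 promoters. Of the 22 genes 12 fell, and among those TATAAA stood in 3, GGAATG in 2, TGANTCA in 1 and the CArG box in 0.

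The second question was whether severe and moderate inflammation differed in these genes. Against control, 17 of 36 genes fell and 1 rose in severe colons, where over all genes 18.9% fell and 16.1% rose. In moderate colons 20 fell and 0 rose, where over all genes 16.7% fell and 13.2% rose. Both comparisons use the same 4 controls. Col3a1, Vcan and Fbln2 differed from control by -0.51, -0.64 and -0.80 in severe colons, where they did not pass, and fell by 0.80, 0.89 and 1.29 in moderate colons. Severe replicate 1 was singled out by its values in these same genes. Results without it rest on fewer severe colons, make no allowance for that choice and are descriptive only. Without it the differences of these 3 genes in severe colons were -0.90 (adjusted p = 0.00222), -1.06 (adjusted p = 0.00412) and -1.36 (adjusted p = 0.00059). Without that array 24 genes fell and 0 rose in severe colons, where over all genes 17% fell and 14% rose. In the same fit 24 fell and 1 rose in moderate colons, where over all genes 17% fell and 13.7% rose. The methods' t-test called 11 falls and 0 rises in severe colons, where over all genes 15.7% fell and 13.9% rose. In moderate colons it called 17 falls and 0 rises, where over all genes 11.9% fell and 9.14% rose.

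Set against each other, severe and moderate colons differed in 0 of the 36 genes by limma, with 0% of all genes called higher and 0% called lower. Differences ran from -0.59 to 0.63. The 95% intervals, made gene by gene without adjustment, reached from 0.21 to 1.10 to either side with a median of 0.61. Differences of up to about that size could not be told from 0 with 3 colons a group, and after adjustment larger ones could be missed as well. At an unadjusted p under 0.05, where over all genes 2.18% were higher and 2.89% lower, there were 2 matrix genes, Col1a1, at 0.63 (95% interval 0.02 to 1.25), and Eln, at 0.49 (95% interval 0.04 to 0.93), both higher in severe colons, where severe replicate 1 was the highest array in each. The methods' t-test gave 0 genes at an unadjusted p under 0.05. For Col8a1 the means were 6.22 ± 0.27 (SD, n = 3) in severe and 6.36 ± 0.46 (SD, n = 3) in moderate colons, a difference far under its fall from control. For Ogn they were 7.83 ± 0.54 (SD, n = 3) and 8.42 ± 0.59 (SD, n = 3), with a difference of -0.59 (adjusted p = 0.98).

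A further 122 matrix genes that are not on the list were followed in the same fit. Of the 114 that were measured, 17 rose, 38 fell and 59 did not pass, with a median difference of -0.07. Over all genes 18.5% rose and 21.2% fell, with a median of 0.03, and the counts of the lists that follow are to be read against these shares. Among 27 further collagens 1 rose and 7 fell. The falls included Col23a1, a transmembrane collagen, at -1.19 (adjusted p = 0.000242). Col8a2, the partner chain of Col8a1, was also called lower (adjusted p = 0.000282), from 4.54 ± 0.49 (SD, n = 4) in control. All 6 inflamed colons, at 3.20 to 3.51, lay under the lower quartile of every array, so the size of its fall is not given. Col6a3, the remaining main chain of collagen VI, fell by 0.63 ± 0.18 (SE, adjusted p = 0.0132). The rise was in Col22a1, a collagen of tissue junctions, at 0.29 (adjusted p = 0.0138).

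Of 19 genes of collagen synthesis and processing 3 rose and 5 fell, shares close to those over all genes. Pcolce2, which speeds the trimming of procollagen, fell by 1.78 ± 0.37 (SE, adjusted p = 0.00237). Serpinh1, the collagen chaperone HSP47, read 9.42, 9.54, 9.64 and 9.23 in control, 9.01, 8.27 and 8.79 in severe and 8.66, 8.35 and 8.54 in moderate colons. It fell by 0.85 ± 0.14 (SE, adjusted p = 0.00054), and all inflamed colons lay below the controls. P4ha1, a subunit of the prolyl hydroxylase that stabilises the triple helix, rose by 0.50 ± 0.11 (SE, adjusted p = 0.00335), and Colgalt1, which adds sugars to collagen, rose by 0.47 ± 0.11 (SE, adjusted p = 0.00627). Of the enzymes that hydroxylate lysine, Plod1 fell by 0.62 ± 0.12 (SE, adjusted p = 0.00119) and Plod3 rose by 0.41 ± 0.08 (SE, adjusted p = 0.00229).

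Of 12 further basement membrane genes 3 rose and 3 fell, again close to the shares over all genes. Lama3, a chain of the laminin under epithelium, rose by 0.75 ± 0.16 (SE, adjusted p = 0.00297), and Lama1 rose by 0.48 ± 0.15 (SE, adjusted p = 0.0276). Lama2, the laminin chain of muscle, fell by 1.25 ± 0.18 (SE, adjusted p = 0.000211), and Agrn, agrin, a heparan sulphate proteoglycan, fell by 0.78 ± 0.13 (SE, adjusted p = 0.000594).

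Of 10 further elastic fibre and microfibril genes 5 fell and 1 rose. Mfap5, a microfibril protein, read 6.57, 6.57, 7.10 and 6.45 in control, 7.01, 4.47 and 3.84 in severe and 4.19, 4.37 and 4.92 in moderate colons. It fell by 1.87 ± 0.50 (SE, adjusted p = 0.0102), and severe replicate 1 again lay within the controls while the other inflamed colons were far below them. Severe replicate 3, at 3.84, lay under the highest lower quartile of the arrays, so the size of the Mfap5 fall is uncertain. Efemp1, fibulin 3, fell by 1.07 ± 0.24 (SE, adjusted p = 0.00417), and Fbn2, the second fibrillin, rose by 0.46 ± 0.09 (SE, adjusted p = 0.00147) from a low level, at 4.27 ± 0.20 (SD, n = 4) in control.

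Further proteoglycans showed 5 falls and 0 rises among 11. Prelp, a small leucine-rich protein that ties collagen to basement membranes, read 7.92, 7.96, 7.95 and 7.80 in control, 5.71, 5.23 and 5.28 in severe and 6.11, 5.45 and 6.52 in moderate colons. It fell by 2.19 ± 0.22 (SE, adjusted p = 2.17e-05). Aspn, asporin, a relative of decorin, fell by 2.18 ± 0.25 (SE, adjusted p = 4.76e-05), and both had all inflamed colons below the controls. In both, severe replicate 1 lay among the other inflamed colons.

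Of 18 further matricellular genes 9 fell and 2 rose. Ccn3, a growth-regulating matricellular protein, read 11.75, 10.03, 11.21 and 11.13 in control, 6.46, 7.43 and 6.27 in severe and 6.49, 7.78 and 7.08 in moderate colons. It fell by 4.11 ± 0.36 (SE, adjusted p = 8.17e-06), a 17.3-fold lower level. Sparcl1, the relative of Sparc, fell by 2.30 ± 0.23 (SE, adjusted p = 1.75e-05). Tgfbi, a TGF-beta-induced adhesion protein, read 9.48, 9.29, 9.31 and 9.33 in control, 11.64, 10.25 and 11.03 in severe and 10.89, 10.31 and 10.15 in moderate colons. It rose by 1.35 ± 0.25 (SE, adjusted p = 0.00122), and Spon1, a spondin, rose by 1.05 ± 0.26 (SE, adjusted p = 0.00641).

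**Figure D4:**
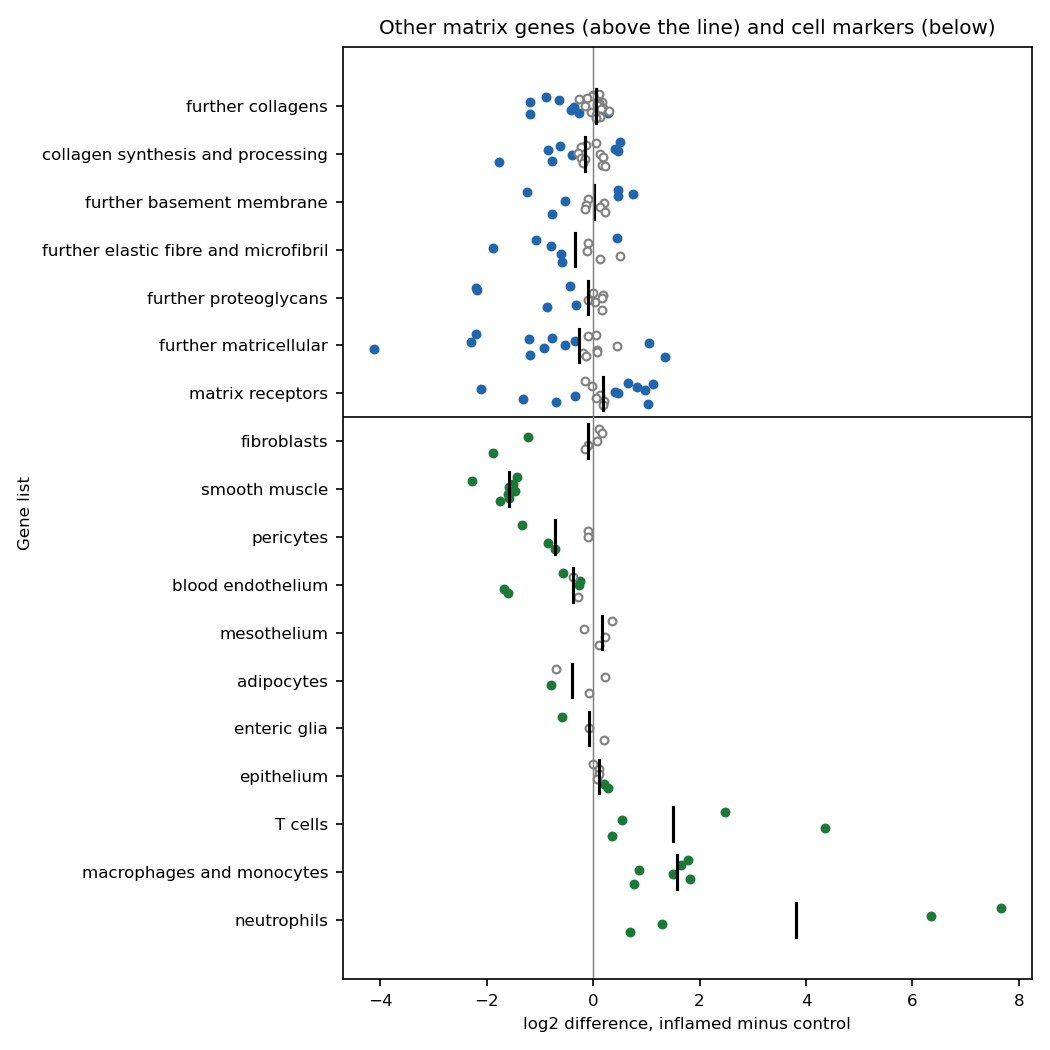
Each point is the log2 difference, inflamed minus control, of a gene in a list of other matrix genes (upper block) or cell markers (lower block), filled where the adjusted p was under 0.05, and the black ticks are list medians. The smooth muscle markers all lie to the left of 0 and the T cell, macrophage and neutrophil markers all to the right, with Ccn3 the farthest point to the left.

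Markers of cell types in the gut wall were followed in the same fit, and their calls went in both directions. All 8 smooth muscle markers fell, with a median of -1.58. Among them Myh11, smooth muscle myosin, fell by 2.27 ± 0.25 (SE, adjusted p = 3.54e-05) and Synm, synemin, fell by 1.76 ± 0.17 (SE, adjusted p = 1.55e-05). Their summed level ran from 14.84 to 15.24 in control and from 13.12 to 13.95 in inflamed colons, with no overlap and with severe replicate 1, at 13.43, inside the inflamed range. Of 5 pericyte markers 3 fell, led by Rgs5 at -1.34 (adjusted p = 3.89e-05) and Kcnj8 at -0.84 (adjusted p = 0.00201), with a summed level of 11.41 to 11.98 in control and 10.34 to 10.72 in inflamed colons. Of 7 markers of blood endothelium 5 fell, led by Tek at -1.67 (adjusted p = 5.72e-06) and Emcn at -1.59 (adjusted p = 0.000283), with a summed level of 8.54 to 8.86 in control and 7.92 to 8.56 in inflamed colons. Tie1 was dim, with a mean under the highest lower quartile of the arrays in both groups. The lowest inflamed values of Emcn, at 3.59, and of Tek, at 3.87, also lay under that quartile, so the sizes of these falls are uncertain.

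The fibroblast markers were divided. Of 7 markers 2 fell, Mfap5 and Tcf21, a fibroblast transcription factor, which fell by 1.23 ± 0.20 (SE, adjusted p = 0.000463). Mfap5 is itself a matrix gene, and its fall is already counted above among the further microfibril genes. The receptors Pdgfra and Pdgfrb, which define fibroblasts and mural cells, differed by 0.11 (adjusted p = 0.68) and 0.17 (adjusted p = 0.564), and Prrx1 was dim, with means of 3.89 in control and 3.97 in inflamed colons. The summed level was 10.07 to 10.31 in control and 9.63 to 10.70 in inflamed colons, so that the groups overlapped.

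Of 4 mesothelium markers 0 passed over all 6 inflamed colons, and Lrrn4 was dim. In severe colons 1 of the 4 rose, Msln, mesothelin, which read 5.16, 5.13 and 5.18 there, 4.34, 4.45, 4.47 and 4.63 in control and 4.48, 4.36 and 4.63 in moderate colons, a rise of 0.68 over control (adjusted p = 0.000241). The summed level of the list was 6.82, 6.39 and 6.67 in severe colons, above all controls, at 6.23 to 6.34, and 6.06 to 6.23 in moderate colons. Of 4 adipocyte markers 1 fell, Fabp4 at -0.79 (adjusted p = 0.0218), while Adipoq and Lep were dim. Of 3 enteric glia markers 1 fell, S100b at -0.58 (adjusted p = 0.00101). Of 6 epithelial markers 2 rose, Cldn7 at 0.27 (adjusted p = 0.00209) and Krt19 at 0.20 (adjusted p = 0.0414), with a summed level of 15.99 to 16.06 in control and 16.11 to 16.21 in inflamed colons. Krt8, a keratin that defines epithelium, read 14.2 or more on every array. All 4 T cell markers, all 6 macrophage and monocyte markers and all 4 neutrophil markers rose. Their summed levels were 7.59 to 7.70 and 8.93 to 9.89 for T cells, 10.36 to 10.64 and 11.66 to 12.82 for macrophages and monocytes, and 6.30 to 7.83 and 10.64 to 14.52 for neutrophils, in control and inflamed colons in that order. Among these S100a8 of neutrophils rose by 7.66 (adjusted p = 1.73e-05), and Cd3g of T cells was called higher (adjusted p = 1.59e-06) from a dim control mean of 3.54. The part of these shifts in cell markers in the fall of the matrix genes was not tested.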

How the data were processed

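RNA of the distal colon of 10 mice was hybridised to Affymetrix mouse expression arrays with probes near the 3′ end of transcripts, 1 array per mouse. The authors made the deposited log2 values from the scanned arrays by RMA in Affymetrix Expression Console (versions not given in the sources used here), which corrects background, equalises distributions and summarises probes by median polish. Sources differ on the extraction of RNA, with Trizol in the labels and a Qiagen kit in the methods. Neither detection calls nor scan dates were analysed here.

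From these values, 34945 probe sets annotated to 1 gene were kept, and each of 18193 genes took its probe set of highest mean. Groups came from the labels. Moderated tests (two-sided, limma 3.58.1 under R 4.3.3, Benjamini-Hochberg across all genes, threshold 0.05) set inflamed against control with 2 groups in the model, and the severity groups against control and each other with 3. The fit was tested on simulated data. Summed levels of a marker list are log2 of the sum of its linear values. Replicates are labelled biological replicates.

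Alternatives varied the value per gene, dim genes (a mean of at least 6.59 was then required), scaling, the variance prior, weights per array, design, the t-test of the methods, a replicate block and each array in turn. The members, lists, tests and naming rule were chosen with earlier results of these data known. By that rule the 2 largest rises and falls of each role, and genes whose second probe set or an alternative turned their direction, are given by array. Genes outside it (Lox, Col18a1, Col6a3, Plod1, Plod3, Serpinh1, the remaining members) and those behind small counts were named after their values were seen. Python 3.11.15 and matplotlib 3.10.9 made the figures.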

Additional observations from a re-analysis of the deposited data

Results flagged for a closer look

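For each of the 36 matrix genes the spread within the 4 controls and within the 6 inflamed colons was searched for an array whose gap to its nearest neighbour took up most of the group's range (Dixon's ratio above 0.829 for 4 arrays and 0.625 for 6). Of 72 groups searched 6 held such an array, where chance gives about 1 in 20. In 4 of them the array was severe replicate 1, higher than the other inflamed colons. It read 8.29 for Col5a1, 8.31 for Col6a1, 7.35 for Fbln2 and 8.19 for Lox. In the other 2 it was a control: replicate 1 was high for Col12a1, at 8.15, and replicate 4 was low for Vcan, at 6.67. No matrix gene passed the test of severe against moderate colons.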

How the results depend on the processing

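Of the 21 falls in inflamed colon, 16 held in every setting in which the gene was tested, and 0 turned direction. The other 5 were Col3a1, Col12a1, Vcan, Thbs1 and Fbln2. Among the falls, 11 genes had a further probe set with a mean above the lower quartile of every array. In 6 of these 11 a further such probe set was called lower as well, and in 0 called higher. Falls in inflamed colon numbered 17 with the mean over probe sets, where 3748 of 18193 genes fell. They numbered 17 with the methods' t-test, where 20% of all genes fell. With dim genes left out 14 of 26 tested fell, where 2691 of 9096 genes did. With array weights 22 fell, where 4035 of 18193 genes did. With 1 array left out 17 to 27 fell, where 3378 to 3839 of 18193 genes did. The count of rises was 1 with the mean over probe sets, where 3357 of 18193 genes rose. It was 0 to 1 with 1 array left out, where 2840 to 3399 of 18193 genes rose. In severe colons the count of rises was 2 with dim genes left out, with quantile normalization repeated and with array weights, 3 with arrays centred, 0 with the methods' t-test, with only the arrays of the 2 groups and with the replicate block, and 0 to 4 with 1 array left out, where 4 came without severe replicate 2. Falls in severe colons were 11 with the t-test and 13 to 24 with 1 array left out. In moderate colons rises were 1 with only the arrays of the 2 groups and 0 to 1 with 1 array left out. Other matrix genes called were 30 with dim genes left out, of 46 then tested, and 49 to 60 with 1 array left out. The counts by setting in severe and moderate colons and in other matrix genes are given here without shares over all genes. They show only how far the calls moved. Nid1 differed by -0.057 with the mean over probe sets and by -0.0104 to 0.25 with 1 array left out, and Col4a2 by 0.0505 with arrays centred, 0.035 with quantile normalization repeated and -0.17 to 0.12 with 1 array left out. Neither was called in any of these, and the cause of these shifts was not tested. The median of the 36 genes was -0.42 with the mean over probe sets. Replicate numbers are shared between groups, but same-numbered arrays deviated together by correlations of -0.08 to 0.29 only, so that the numbers were not taken as pairs. With the replicate block 20 genes fell in inflamed colon, Thbs1 and Vcan no longer passed, and Fn1 fell by 0.64 (adjusted p = 0.0341). Signal over background was not analysed here, and dim probe sets were judged by the lower quartile alone.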

Other observations

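Matrix receptors are the surface proteins through which cells hold and sense the matrix. Of 17 measured receptors 7 rose and 4 fell in inflamed colon (limma, adjusted over all genes), where over all genes 18.5% rose and 21.2% fell. The rises were led by Itga3, a laminin-binding integrin of epithelium, at 1.13 (adjusted p = 5.25e-05), and Cd44, the hyaluronan receptor, at 1.02 (adjusted p = 0.00337). Itga6 and Itgb4, which together form the epithelial receptor for laminin, rose by 0.82 (adjusted p = 5.56e-06) and 0.47 (adjusted p = 0.000548). The falls were led by Itga8, an integrin of smooth muscle and fibroblasts, at -2.11 (adjusted p = 0.000106), and Sdc2, a heparan sulphate proteoglycan of the cell surface, at -1.32 (adjusted p = 5.86e-06). In Itga8 every inflamed colon, at 3.80 to 5.63, lay below every control, at 6.84 to 7.15. The lowest of these inflamed values lay under the lower quartile of every array, so the size of this fall is uncertain. Ddr2, a receptor for fibrillar collagen, fell by 0.34 (adjusted p = 0.00383).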
